A study of Mus musculus with 6 samples.

Results

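The genes described here are 9 C-type lectin receptors and relatives of macrophages: Clec4d, Clec4e, Clec4n, Clec5a, Clec7a, Clec4a2, Clec10a, Clec12a and Clec2d. They were taken by name from the 55536 genes of the deposited tables, whose Ensembl identifiers were matched to the mouse annotation GENCODE M21 on GRCm38, and 9 of 9 were found. RAW264.7 is an established macrophage cell line from the mouse, and the cytokine RANKL drives it to form osteoclasts, the cells that resorb bone. RANKL was present at 50 ng/mL for all 6 bulk RNA libraries, and 3 of them (the etelcalcetide libraries) had etelcalcetide at 4 µM as well. Etelcalcetide is a peptide agonist of the calcium-sensing receptor, used as a drug. The other 3 (the RANKL libraries) had RANKL alone. Cells without RANKL were not analysed here, so each comparison reads the addition of etelcalcetide (n = 3) to RANKL (n = 3) in 1 cell line. The series design gives 5 days for all samples, while the labels of replicates 1, 2 and 3 of both groups give 5, 6 and 7 days. The labels do not say whether replicates were grown separately, and p-values then measure only the spread among 6 samples that may differ for technical reasons alone. The libraries held 13742913 to 16264432 gene-assigned reads, so a single read over 1 kb of exon equals 0.0615 to 0.0728 FPKM (fragments per exon length, scaled by the library total of assigned fragments).

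C-type lectin receptors are membrane proteins with which macrophages and other myeloid cells recognise sugars and lipids of microbes and of dying cells. Activating members signal through an immunoreceptor tyrosine-based activation motif (ITAM), either on the adaptors Fcer1g and Tyrobp or in a shortened form in their own tail, to the kinase Syk and from there to the Card9, Bcl10 and Malt1 complex and NF-kB. Inhibitory members carry an inhibitory motif (ITIM) that recruits phosphatases such as Ptpn6 (SHP-1). The same adaptors serve the co-stimulatory receptors of osteoclasts, where ITAM signals act beside RANKL. Of the genes described, Clec4d, Clec4e, Clec4n, Clec5a and Clec7a are the activating receptors, Clec4a2 and Clec12a the inhibitory ones, and Clec10a and Clec2d stand outside both classes.

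The receptors whose values differ most in direction lie close together on chromosome 6, and 3 of their promoters are shown so that the sequence upstream of genes with unlike changes can be compared. Clec4d and Clec4e are immediate neighbours with opposite changes, and Clec7a rose in the second group of receptors on the same chromosome. Each stretch is the 250 bases before the RefSeq gene start on GRCm38.p6, 5′ to 3′ on the gene's strand, at chr6:123289872-123290121 for Clec4e (minus strand), chr6:123261857-123262106 for Clec4d (plus strand) and chr6:129472780-129473029 for Clec7a (minus strand), and none of these bases lies in an M21 exon. Capitals mark matches to the motifs named after them.
Clec4e: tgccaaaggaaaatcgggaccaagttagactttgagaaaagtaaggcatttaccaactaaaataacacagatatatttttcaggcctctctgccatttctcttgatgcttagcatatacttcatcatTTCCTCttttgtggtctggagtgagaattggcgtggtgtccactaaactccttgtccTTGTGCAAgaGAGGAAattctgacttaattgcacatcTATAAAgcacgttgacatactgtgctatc
Clec4d: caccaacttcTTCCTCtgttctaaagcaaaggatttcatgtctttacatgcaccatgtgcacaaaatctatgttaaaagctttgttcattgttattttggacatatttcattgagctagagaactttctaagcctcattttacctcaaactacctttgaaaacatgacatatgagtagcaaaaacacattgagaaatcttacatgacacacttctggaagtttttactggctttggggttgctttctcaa
Clec7a: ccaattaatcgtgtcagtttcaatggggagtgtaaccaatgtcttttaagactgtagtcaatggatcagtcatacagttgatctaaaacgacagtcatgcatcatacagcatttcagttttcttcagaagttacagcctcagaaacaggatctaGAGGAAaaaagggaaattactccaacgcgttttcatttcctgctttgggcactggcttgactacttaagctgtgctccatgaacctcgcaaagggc

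Motifs were searched on both strands. GAGGAA, the core bound by PU.1 and other ETS factors, stood 123 bases (reverse strand) and 56 bases before the start of Clec4e, 240 bases before that of Clec4d (reverse strand) and 96 bases before that of Clec7a. It occurs in 23.3% of the 32851 windows of this length in the RefSeq table. The Clec4e window also held a C/EBP motif (TTGCNNAA, 9.56% of windows) 66 bases before the start on the reverse strand, which did not overlap its other matches, and TATAAA (12.4% of windows) 29 bases before it. The letters of the AP-1 motif (TGANTCA, 6.75%), the NF-kB motif (GGANTTNCC, 3.15%), the interferon response element (GAAANNGAA, 7.13%) and the E-box of Mitf and its relatives (CACGTG, 6.02%) were not in these 3 windows. RefSeq promoter windows were matched for 7 of the 9 genes. Among those not shown, the window of Clec12a, which fell, also held a C/EBP motif, more than 1 GAGGAA and an AP-1 motif. All 250 bases of that window lie in M21 exons, as do 68 bases of the Clec4a2 window and 16 of the Clec5a window. Clec5a, which fell as well, had more than 1 GAGGAA and a TATAAA 209 bases before the start on the reverse strand. The Clec4a2 window, which lies within the M21 span of that gene, held TATAAA alone, 161 bases before the start. The Clec2d window held the interferon response element alone.

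Adding etelcalcetide to RANKL moved these receptors in both directions. Clec4e, Clec4n and Clec7a, which bind microbial glycolipid, mannan and β-glucan, were 1.6 to 2.37-fold higher, while Clec4d, Clec5a and Clec12a were 1.36 to 1.63-fold lower and the inhibitory Clec4a2 was 7.60-fold lower. Clec10a and Clec2d did not pass the test. None of the 9 was at 0 in any library: the lowest count was 27 reads (Clec2d in etelcalcetide replicate 3) and the highest 2867 (Clec12a in RANKL replicate 2), and 9 of 9 passed the filter on low values. A gene was called changed at a Benjamini-Hochberg adjusted p under 0.05 from limma over all 11120 tested genes. By that rule 7 of 9 receptors changed (77.8%), beside 53.0% of all tested genes; 3 were higher, beside 26.0%, and 4 lower, beside 27.0%. More than 1 in 2 tested genes was called, so the count of 7 is not in itself a result about these receptors. By size, 3 of 9 were called and at least 2-fold changed (Clec4e, Clec4n and Clec4a2), beside 7.02% of tested genes. Of these, 2 were higher, beside 4.10%, and 1 lower, beside 2.92%. The median log2 fold change of the 9 was -0.37, beside -0.01 over all tested genes, whose median size of change was 0.279. The 7 changed genes were also those whose groups did not overlap in deposited FPKM, as was the case for 61.2% of tested genes.

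Lists of cell markers give what else moved in these libraries. Over all tested genes 53.0% were called changed, 26.0% higher and 27.0% lower. A count of called markers near that share is not in itself a result about a cell type. Of 10 macrophage markers 9 were tested, 5 rose and 0 fell, and their summed level was 2841 to 3008 FPKM with RANKL and 3315 to 3490 with etelcalcetide; Mertk, with 2 to 8 reads, was too low to test. Of 10 osteoclast markers 9 were tested, 0 were called higher and 6 lower, with a summed level of 393 to 539 FPKM against 206 to 219. Of these 6, Acp5, Ocstamp and Nfatc1 had enough reads in both groups, while Ctsk, Atp6v0d2 and Oscar passed the filter only through the RANKL libraries, where they are high, and had to differ; Oscar had no read with etelcalcetide. Dendritic cell markers summed to 7.21 to 10.0 FPKM against 22.8 to 30.1, with a highest single value of 19.2 FPKM. Of 8 listed, 3 were tested and 5 stayed under 10 reads in every library. The sums thus rest mainly on the 3 tested genes and do not describe the list as a whole. Zbtb46 rose, and Ccr7 was called higher but passed the filter only through the etelcalcetide libraries. Itgax did not pass (log2 fold change -0.11, limma adjusted p = 0.516), but was called lower without RANKL replicate 1 (-0.28, limma adjusted p = 0.0280). Cd209a was at 0 throughout. Neutrophil markers summed to at most 0.567 FPKM, with Ly6g, S100a9, Mpo, Ltf and Ngp at 0, and lymphocyte and NK markers to at most 0.301, with Cd3e, Cd3g, Ms4a1, Ncr1, Nkg7 and Gzma at 0. Markers of non-blood cells summed to at most 0.343 FPKM, with Krt8, Krt18 and Col1a2 at 0. The part of the osteoclast, macrophage and dendritic marker changes in the receptor values was not tested. In bulk samples, fewer cells of a type and less RNA per cell cannot be told apart.

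**Figure D1:**
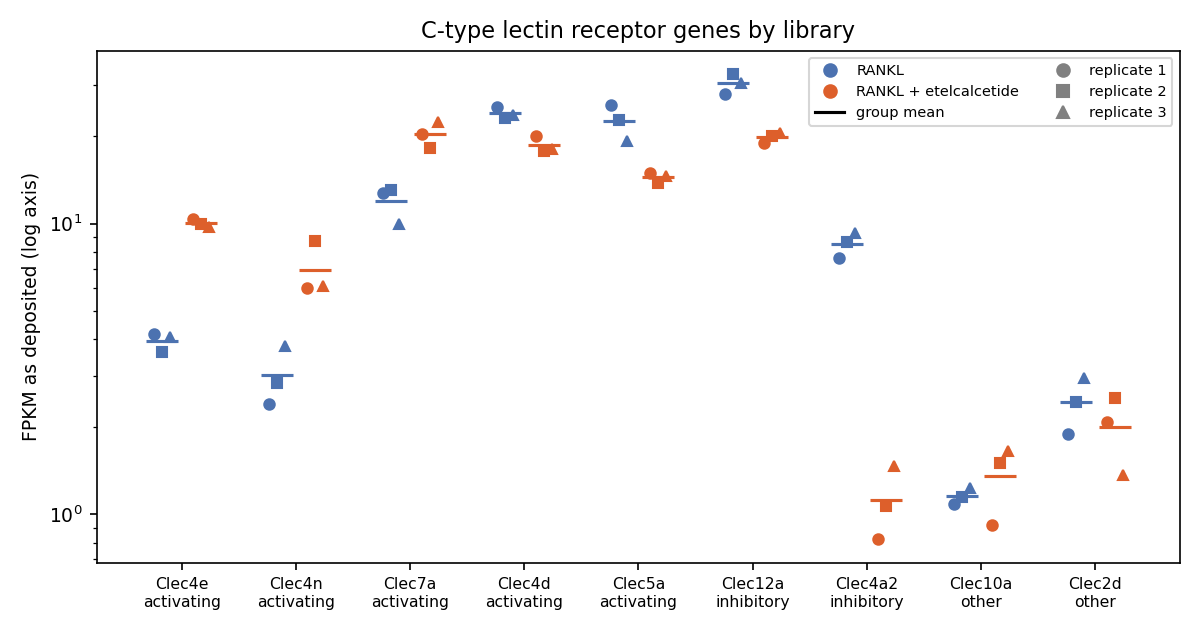
FPKM as deposited (log axis) of the 9 receptor genes in each library; blue is RANKL, orange RANKL with etelcalcetide, the marker shape gives the replicate number and the horizontal line the group mean. The orange points of Clec4e, Clec4n and Clec7a lie above all blue ones, those of Clec4d, Clec5a, Clec12a and Clec4a2 below, and those of Clec10a and Clec2d overlap the blue ones.

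Clec4e, known as Mincle, is an activating receptor for mycobacterial cord factor and for a nuclear protein released by dead cells. Clec4e (ENSMUSG00000030142, chromosome 6, 123281789 to 123289870, minus strand) had 4.17, 3.62 and 4.08 FPKM in RANKL replicates 1 to 3 and 10.3, 10.0 and 9.70 in etelcalcetide replicates 1 to 3, from 285 to 316 reads and 682 to 792 reads. The 3 etelcalcetide libraries lay close together and far above the RANKL libraries, with means of 3.95 ± 0.297 and 10.0 ± 0.323 FPKM (SD, n = 3 each). The log2 fold change was 1.24 (SE 0.0805), a 2.37-fold rise with a 95% interval of 2.08 to 2.69 (limma adjusted p = 5.18e-06).

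Clec4n, known as dectin-2, binds fungal mannan and signals through Fcer1g. Clec4n (ENSMUSG00000023349, chromosome 6, 123229843 to 123247021, plus strand) had 2.40, 2.84 and 3.78 FPKM with RANKL and 5.98, 8.71 and 6.11 with etelcalcetide. Its counts were low, at 52, 64 and 78 reads against 131, 170 and 141, and its libraries were more spread than those of Clec4e, but the groups did not overlap. Means were 3.01 ± 0.705 and 6.93 ± 1.54 FPKM (SD, n = 3 each), and the log2 fold change was 1.10 (SE 0.190), or 2.15-fold (95% interval 1.6 to 2.89; limma adjusted p = 0.00128).

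Clec4d, known as MCL, is the partner with which Mincle forms a complex on Fcer1g. Clec4d (ENSMUSG00000030144, chromosome 6, 123262111 to 123275265, plus strand) had 25.2, 23.1 and 23.7 FPKM with RANKL and 20.0, 17.8 and 18.1 with etelcalcetide, from 391 to 616 reads. The fall was small beside that of Clec4a2 but every etelcalcetide library was below every RANKL library. Means were 24.0 ± 1.12 and 18.6 ± 1.2 FPKM (SD, n = 3 each), and Clec4d was 1.36-fold lower (95% interval 1.23 to 1.51), which is -0.44 on the log2 scale (SE 0.0645; adjusted p = 0.000518 by limma).

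Clec4e and Clec4d lie 6523 bp apart and changed in opposite directions. The ratio of their FPKM within a library, which no scaling between libraries affects, was 0.165, 0.157 and 0.172 with RANKL and 0.516, 0.562 and 0.537 with etelcalcetide. The Clec4e mRNA level was thus 0.165 ± 0.00778 of that of Clec4d (SD, n = 3) in the RANKL libraries and 0.538 ± 0.0228 in the etelcalcetide libraries. These ratios are given per exon length. The merged exon length used for Clec4e, 4965 bases, is longer than its longest coding transcript of 2518 bases, which lowers its FPKM equally in all libraries.

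Clec4a2, known as DCIR1, is an ITIM receptor that restrains dendritic cells. Clec4a2 (ENSMUSG00000030148, chromosome 6, 123106428 to 123143999, plus strand) had 7.64, 8.63 and 9.27 FPKM with RANKL and 0.820, 1.07 and 1.47 with etelcalcetide. Reads numbered 341, 401 and 394 against 37, 43 and 70, so the lower group was still above the filter in all 3 libraries. Means were 8.51 ± 0.822 and 1.12 ± 0.329 FPKM (SD, n = 3 each), and the log2 fold change was -2.93 (SE 0.179; 95% interval -3.33 to -2.52; limma adjusted p = 3.69e-06). This was the largest change among the 9 and the 85th largest among the 11120 tested genes. The fold depends on the pseudocount of 0.1 FPKM: with 1 FPKM the log2 fold change was -2.23. Of the 50-base words of its exons 6.83% also occur in other genes, mainly Clec4a4, which had at most 5 reads in a library.

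Within the same stretch Clec4n and Clec4a2 exchanged their order. The Clec4n to Clec4a2 ratio was 0.314, 0.329 and 0.408 with RANKL and 7.30, 8.15 and 4.15 with etelcalcetide. The 4 Clec4 receptors span 183 kb on chromosome 6. The other protein-coding genes in and beside that span were almost without reads: Clec4b1 had at most 2 in a library, and Clec4b2 and the vomeronasal receptor gene Vmn2r19 had 0.

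**Figure D2:**
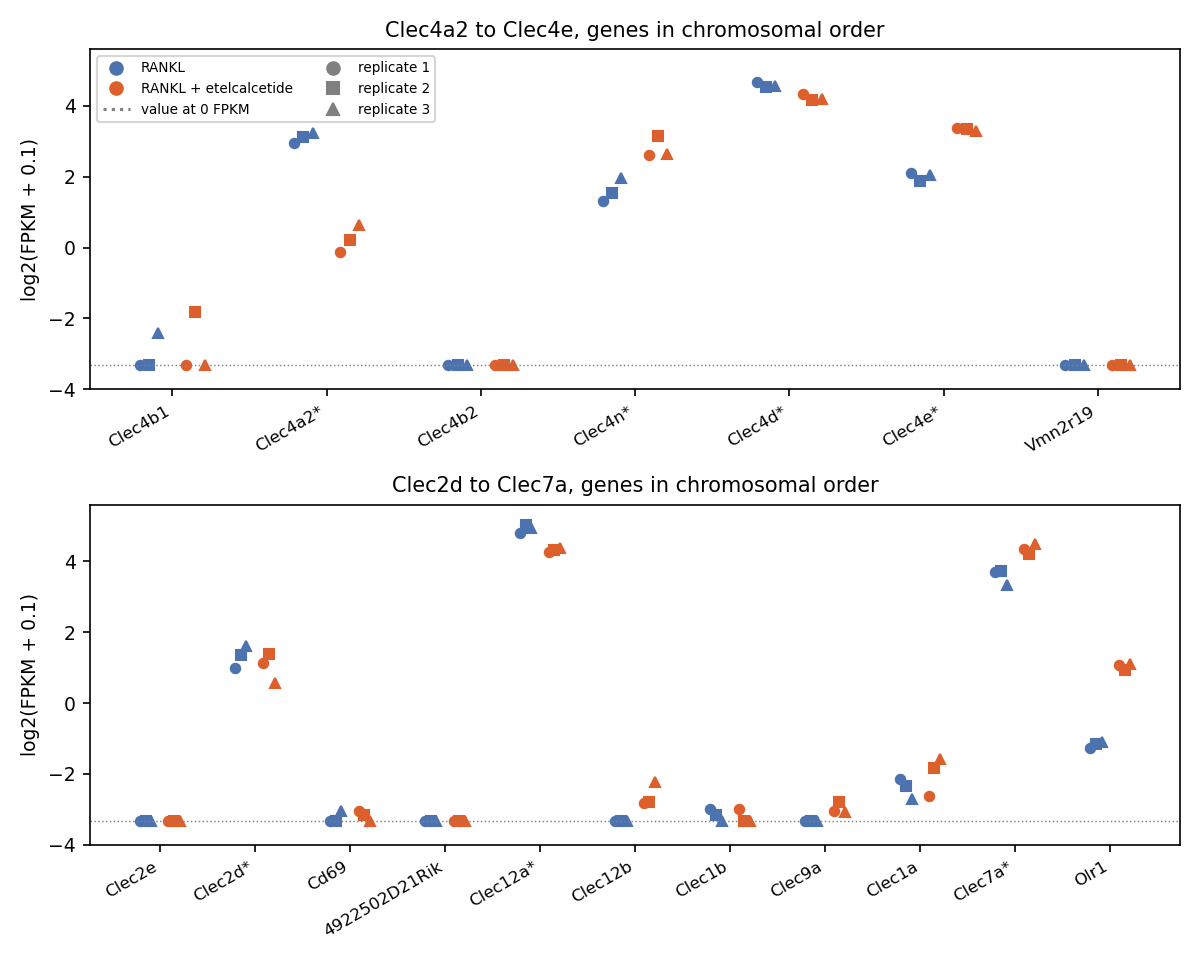
Level of each protein-coding gene, as log2(FPKM + 0.1), in chromosomal order across the stretches of chromosome 6 that hold 4 receptors (top, Clec4a2 to Clec4e) and 3 receptors (bottom, Clec2d to Clec7a), each with 1 further gene at either end; an asterisk marks the receptors described, colours and marker shapes are as in the plot of FPKM by library, and the dotted line is the value at 0 FPKM. Neighbours with unlike changes stand side by side, such as Clec4d with 24.0 against 18.6 FPKM and Clec4e with 3.95 against 10.0.

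Clec7a, known as dectin-1, is the β-glucan receptor and carries its own shortened ITAM. Clec7a (ENSMUSG00000079293, chromosome 6, 129461591 to 129472779, minus strand, listed in M21 as a polymorphic pseudogene) had 12.8, 13.1 and 9.99 FPKM with RANKL and 20.3, 18.2 and 22.3 with etelcalcetide, from 383 to 955 reads. All etelcalcetide libraries were above all RANKL libraries, of which replicate 3 was the lowest. Means were 11.9 ± 1.70 and 20.2 ± 2.03 FPKM (SD, n = 3 each), and the log2 fold change was 0.68 (SE 0.111), 1.6-fold (95% interval 1.35 to 1.91; limma adjusted p = 0.000970).

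Clec12a, known as MICL, is an ITIM receptor for uric acid crystals. Clec12a (ENSMUSG00000053063, chromosome 6, 129342691 to 129365303, plus strand) had 27.9, 32.7 and 30.4 FPKM with RANKL and 19.0, 20.0 and 20.5 with etelcalcetide, on 1523 to 2867 reads, the deepest counts of the 9. The groups were well apart, at 30.3 ± 2.36 and 19.8 ± 0.80 FPKM (SD, n = 3 each). The log2 fold change was -0.69 (SE 0.0699; limma adjusted p = 6.73e-05), 1.61-fold lower (95% interval 1.44 to 1.80). Its merged exon length of 5528 bases exceeds its longest coding transcript of 2502 bases, which lowers its FPKM equally in all libraries.

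Clec2d, the osteoclast inhibitory lectin, is a ligand of the NK cell receptor Klrb1b and slows osteoclast formation when given as protein. Clec2d (ENSMUSG00000030157, chromosome 6, 129180615 to 129186534, plus strand) had 1.89, 2.44 and 2.95 FPKM with RANKL and 2.08, 2.52 and 1.37 with etelcalcetide, on 27 to 52 reads. The groups overlapped, with etelcalcetide replicate 3 the lowest of all. The log2 fold change was -0.37 with a 95% interval of -0.89 to 0.16 (limma adjusted p = 0.209), so a difference was not detectable at this depth. Its receptor gene Klrb1b had 0 reads in all 6 libraries.

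Clec7a and Clec12a, an activating and an inhibitory receptor in the same 292 kb stretch, came to near-equal levels per exon length with etelcalcetide. Their within-library ratio (Clec7a over Clec12a) was 0.457, 0.401 and 0.329 with RANKL and 1.07, 0.908 and 1.09 with etelcalcetide, or 0.395 ± 0.0642 and 1.02 ± 0.0981 (SD, n = 3 each). The merged exon lengths used were 5528 bases for Clec12a and 2638 for Clec7a, against longest coding transcripts of 2502 and 2277 bases. The nearness to equal levels depends on these lengths, while the relative change of the ratio between the groups does not. Between and beside the receptors, Clec2e and 4922502D21Rik had 0 reads, and Cd69, Clec12b, Clec1b and Clec9a had at most 3 in a library. Olr1, the receptor for oxidised LDL, lies 12464 bp beyond Clec7a, measured between the nearest gene ends, and had 17, 20 and 19 reads with RANKL and 111, 88 and 118 with etelcalcetide.

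Clec5a, known as MDL-1, pairs with Tyrobp and Hcst on myeloid cells, and is the receptor of the group that lies apart from the others on chromosome 6. Clec5a (ENSMUSG00000029915, 40574894 to 40585821, minus strand) had 25.6, 22.8 and 19.2 FPKM with RANKL and 14.9, 13.8 and 14.6 with etelcalcetide, on 730 to 1502 reads. The RANKL libraries were widely spread but stayed above the etelcalcetide libraries. Means were 22.5 ± 3.24 and 14.4 ± 0.547 FPKM (SD, n = 3 each); the log2 fold change was -0.71 (SE 0.0985; limma adjusted p = 0.000411), 1.63-fold lower (95% interval 1.40 to 1.91). Of its adaptors, Tyrobp had 412 ± 35.2 FPKM with RANKL and 383 ± 16.3 with etelcalcetide (log2 fold change -0.18, limma adjusted p = 0.05002, just over the threshold), and it passed under 7 of 17 alternative settings, among them without RANKL replicate 1 (adjusted p = 0.0153). Hcst had 4.56 ± 1.30 and 4.30 ± 0.512 FPKM (log2 fold change -0.13, adjusted p = 0.592 by limma).

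Clec10a, a galactose-binding lectin of macrophages, is the one of the 9 on another chromosome. Clec10a (ENSMUSG00000000318, chromosome 11, 70156197 to 70170834, plus strand) had 1.09, 1.15 and 1.23 FPKM with RANKL and 0.917, 1.51 and 1.65 with etelcalcetide, on 41 to 78 reads. Etelcalcetide replicate 1 was the lowest of the 6 and replicate 3 the highest, so the groups overlapped. The log2 fold change was 0.10 with a 95% interval of -0.37 to 0.58 (limma adjusted p = 0.701); without etelcalcetide replicate 3 it was -0.05. Of the 50-base words in its exons 9.02% also occur elsewhere, mostly in Mgl2, which had at most 2 reads in a library. No exon base of any of the 9 genes overlaps another gene.

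**Figure D3:**
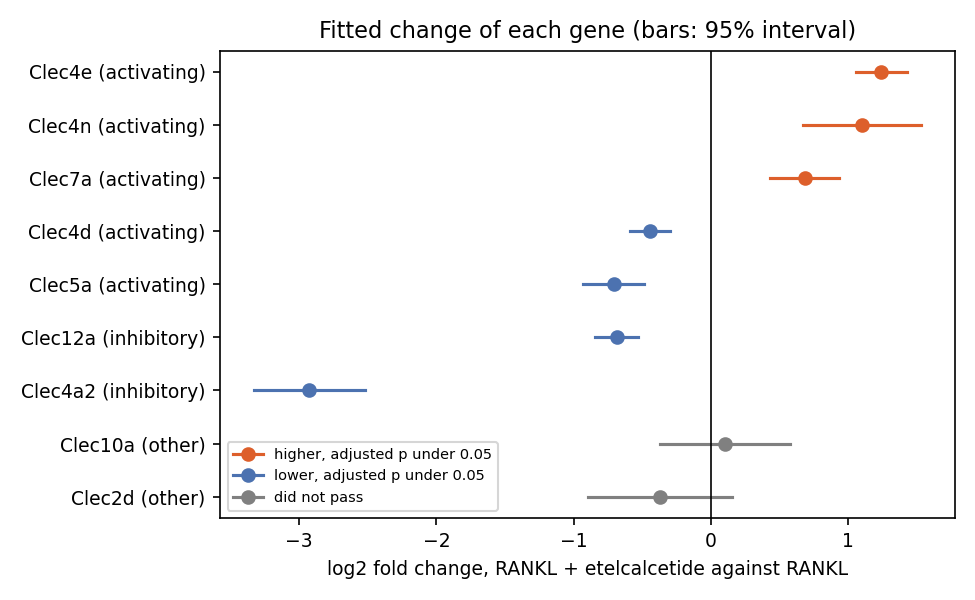
Fitted log2 fold change (RANKL with etelcalcetide against RANKL, horizontal axis) of the 9 receptor genes with 95% intervals; orange genes were higher and blue genes lower at a limma adjusted p under 0.05, grey genes did not pass. The values run from -2.93 for Clec4a2 to 1.24 for Clec4e, and the intervals of Clec10a and Clec2d cross 0.

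Levels per exon length placed Clec12a first in the RANKL libraries, followed by Clec4d and Clec5a, whose ranges overlapped, then Clec7a, Clec4a2, Clec4e, Clec4n, Clec2d and Clec10a; the ranges of Clec4e and Clec4n and of Clec4n and Clec2d overlapped too. With etelcalcetide Clec7a, Clec12a and Clec4d overlapped at the top, then came Clec5a, Clec4e and Clec4n, each apart from the next, and Clec2d, Clec10a and Clec4a2 overlapped at the bottom. Clec4a2 thus stood in the middle of the order in the one group and at the lower end in the other. Averaged over the libraries, Clec12a had more FPKM than 81.9% of tested genes, Clec2d more than 19.5% and Clec10a, the lowest of the 9, more than 10.95%.

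The activating and the inhibitory receptors were also summed per library. The 5 activating genes summed to 70.2, 65.4 and 60.7 FPKM with RANKL and to 71.5, 68.5 and 70.7 with etelcalcetide, which overlap. The 2 inhibitory genes summed to 35.6, 41.3 and 39.7 FPKM and to 19.8, 21.1 and 22.0, which do not. The inhibitory sum over the activating sum was 0.597 ± 0.0792 with RANKL and 0.298 ± 0.0191 with etelcalcetide (SD, n = 3 each). Rises of Clec4e, Clec4n and Clec7a and falls of Clec4d and Clec5a stand behind the overlapping activating sums. These sums describe mRNA of genes with unlike ligands, and Clec12a makes up most of the inhibitory sum. They add deposited FPKM before scaling, per merged exon length, so each gene's weight depends on that length. For Clec12a that length is 5528 bases, against a longest coding transcript of 2502 bases, and for Clec4e 4965 against 2518 bases.

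By the distance between log2 profiles centred on each gene's own mean over the 6 libraries, the genes most like Clec12a, the receptor with the highest level, included Sh3kbp1 (root-mean-square difference 0.0411) and Chd3 (0.0462). Their levels were 5.23 and 25.0 FPKM with RANKL and 3.30 and 15.7 with etelcalcetide. Those most like Clec4a2 were Slc6a8 (0.144; 5.10 to 0.608 FPKM), Dner (0.184; 2.20 to 0.188 FPKM) and Col27a1 (0.217; 1.83 to 0.219 FPKM). These 6 libraries form 2 groups, so the measure mostly reads the group difference.

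Most of the remaining C-type lectin family was silent. Of 66 further genes listed, 64 were in the annotation, 32 had 0 reads in all 6 libraries and 51 stayed under 10 reads in every library, among them the Cd209 genes, Clec9a and Mgl2. The macrophage mannose receptor Mrc1 had 14, 6 and 8 reads with RANKL and 4, 6 and 6 with etelcalcetide. Clec1a had 10, 8 and 4 against 5, 13 and 20 reads, Mrc2 23, 19 and 19 against 32, 24 and 19, and the Ly49-type gene Klra2 10, 6 and 8 against 5, 4 and 4. These 4 genes were too low to be tested. Ly75 (DEC-205), an endocytic receptor of dendritic cells, went from 1 read over the RANKL group to 50 over the etelcalcetide group, 50.3 times as many after correction for depth (exact conditional interval at 95%: 8.62 to 2024, counting error only).

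Of the 8 further family genes that could be tested, 1 was called higher, 5 lower and 2 did not pass; Olr1 and Selp reached the filter only through the group in which they are high, so this count carries no weight. Clec4a3, a relative of Clec4a2 (DCIR3), fell from 7.36 ± 0.787 to 3.68 ± 0.910 FPKM (SD, n = 3 each; log2 fold change -1.08, limma adjusted p = 0.000466). Its relative Clec4a1 (DCIR4) had 1.17 ± 0.230 and 1.80 ± 0.591 FPKM, overlapping groups and an adjusted p of 0.145 by limma; without etelcalcetide replicate 1, the lowest of its group, it was called higher (log2 fold change 0.77, adjusted p = 0.0130). The log2 fold changes of Clec4a2, Clec4a3 and Clec4a1 were thus -2.93, -1.08 and 0.47; the differences between these genes were not tested. Cd72, an ITIM receptor of B cells and macrophages, fell from 71.2 ± 3.56 to 51.4 ± 0.622 FPKM (log2 fold change -0.55, limma adjusted p = 5.11e-05), with 41.6% of its exon length in an overlap with other genes. Clec11a, a secreted bone growth factor, fell from 2.27 ± 0.225 to 1.29 ± 0.0585 FPKM (log2 fold change -0.85, limma adjusted p = 0.000531). The scavenger receptor Colec12 fell from 15.4 ± 2.41 to 12.6 ± 0.631 FPKM (log2 fold change -0.35, limma adjusted p = 0.0176), a call that was lost without etelcalcetide replicate 2 (adjusted p = 0.0598), with library totals alone (0.0510) and with no filter (0.0583). Klrg2 had 6.57 ± 0.538 and 6.78 ± 0.471 FPKM (log2 fold change -0.03, limma adjusted p = 0.772). Olr1 had 0.344 ± 0.0282 FPKM with RANKL and 1.95 ± 0.133 with etelcalcetide, given with no test for the reason above. P-selectin, Selp, had 36, 78 and 40 reads in the RANKL libraries and 0, 1 and 0 in the etelcalcetide libraries. The totals of 154 and 1 give a ratio of 153 after correction for depth (95% exact conditional interval 27.1 to 6090). That interval covers counting error only, not the spread among libraries, and is no test between the groups. Other genes overlap 14.1% of the exon length of Selp.

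Downstream of the receptors, 25 adaptor and kinase genes were tested, of which 11 rose, 9 fell and 5 did not pass, beside 26.0% higher and 27.0% lower over all tested genes; their median log2 fold change was -0.04, beside -0.01. Syk, the kinase all ITAM receptors share, rose from 15.6 ± 0.934 to 22.0 ± 1.37 FPKM (SD, n = 3 each; log2 fold change 0.41, limma adjusted p = 0.00111). The adaptor of the Mincle, MCL and dectin-2 group, Fcer1g, had 152 ± 2.73 and 178 ± 2.76 FPKM (log2 fold change 0.15, limma adjusted p = 0.0239); that call was lost when RANKL replicate 2 or any 1 etelcalcetide library was left out, with adjusted p up to 0.112, and also with a prior variance without trend (0.0672) and with a replicate block (0.0581). Among the Src-family kinases Fgr rose from 11.5 ± 0.890 to 33.3 ± 2.18 FPKM (log2 fold change 1.44, limma adjusted p = 1.82e-06) while Src fell from 8.27 ± 1.30 to 2.17 ± 0.324 (log2 fold change -1.95, adjusted p = 1.17e-05). Pik3cd, a leukocyte phosphoinositide kinase subunit, rose from 20.2 ± 0.530 to 32.9 ± 1.07 FPKM, and the adaptor Blnk fell from 14.8 ± 0.567 to 8.96 ± 0.649.

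In the Card9 and NF-kB list, 24 of 26 genes were tested; 11 rose, 3 fell and 10 did not pass, with a median log2 fold change of 0.17. The 14 changed genes are a share close to the 53.0% of all tested genes (26.0% higher, 27.0% lower), so their number is not a result about the list. This count rests on some libraries: 14 genes changed with all 6, but 8 without etelcalcetide replicate 2 and 9 without etelcalcetide replicate 3, and the 3 falls, Ikbkg and Mapk8 among them, were 0 when values were scaled by library totals alone. Without etelcalcetide replicate 2 Ikbkg and Mapk8 lost their calls too, at limma adjusted p of 0.0574 and 0.0818. Card9, the adaptor that couples Syk to NF-kB, had 15.1 ± 1.31 and 19.0 ± 0.944 FPKM (SD, n = 3 each; log2 fold change 0.26, limma adjusted p = 0.0159), and lost its call without RANKL replicate 2 (adjusted p = 0.0562) or without etelcalcetide replicate 3 (adjusted p = 0.0811). Its partner Bcl10 rose from 15.5 ± 1.09 to 22.3 ± 1.07 FPKM (log2 fold change 0.45, limma adjusted p = 0.000667), while the protease Malt1 had 2.40 ± 0.265 and 2.88 ± 0.0532 (log2 fold change 0.18, adjusted p = 0.203). NF-kB subunits Relb, Nfkb2 and Rela rose, Relb the most, from 8.39 ± 1.01 to 20.2 ± 0.339 FPKM (log2 fold change 1.18, limma adjusted p = 9.78e-06). Nfkb2, whose exons overlap other genes over 18.1% of their length, went from 33.0 ± 2.61 to 61.9 ± 1.87 FPKM and Rela from 20.8 ± 0.588 to 31.8 ± 1.05. The kinase gene Mapk3 (ERK1) rose from 51.3 ± 2.85 to 75.5 ± 2.53 FPKM.

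Of 14 phosphatases and other listed regulators of these receptors 7 rose, 0 fell and 7 did not pass. Their median log2 fold change was 0.20. Over all tested genes 53.0% changed, 26.0% higher and 27.0% lower. The number changed is thus near the background. The list was drawn up as brakes, but whether each gene, Ptpn11 and Otub1 among them, restrains these receptors was not tested. The ITIM-bound phosphatase Ptpn6 had 187 ± 14.2 and 203 ± 3.20 FPKM (SD, n = 3 each; log2 fold change 0.05, limma adjusted p = 0.580), and the lipid phosphatase Inpp5d (SHIP-1) rose from 27.7 ± 0.778 to 36.0 ± 1.97 (log2 fold change 0.30, limma adjusted p = 0.00308). Csk, which restrains Src kinases, went from 72.2 ± 4.66 to 93.7 ± 3.53 FPKM, the deubiquitinase Otub1 from 29.3 ± 1.14 to 37.2 ± 1.13, Ptpn11 (SHP-2) from 22.1 ± 0.209 to 27.6 ± 0.485 and Rubcn, a Card9 inhibitor, from 4.12 ± 0.238 to 5.79 ± 0.190. Each of these 4 was called higher.

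Of 24 genes known as outputs of the pathway, 14 were tested, of which 11 rose and 3 (Ccl2, Ccl3 and Nos2) fell. Over all tested genes 26.0% were higher and 27.0% lower. The median log2 fold change of the list was 1.04, beside -0.01 over all tested genes. With no filter the list median was 0.70, and with a pseudocount of 1 FPKM it was 0.81. The list was chosen with earlier results of these data known, so its counts are not independent of them. The tested rises ranged from 0.36 on the log2 scale for Il1rn, the interleukin-1 receptor antagonist, to 4.75 for the chemokine Ccl22; Egr1, Egr3 and Il1b lay between them at 2.71, 2.05 and 4.10. The rise of Il1rn was lost without etelcalcetide replicate 2 or 3 (adjusted p = 0.0571 and 0.0553 by limma). Il6, Il12b, Csf2 and Cxcl1, which microbial ligands of these receptors induce in macrophages, had 0 reads in all libraries. The labels name no added ligand of these receptors.

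**Figure D4:**
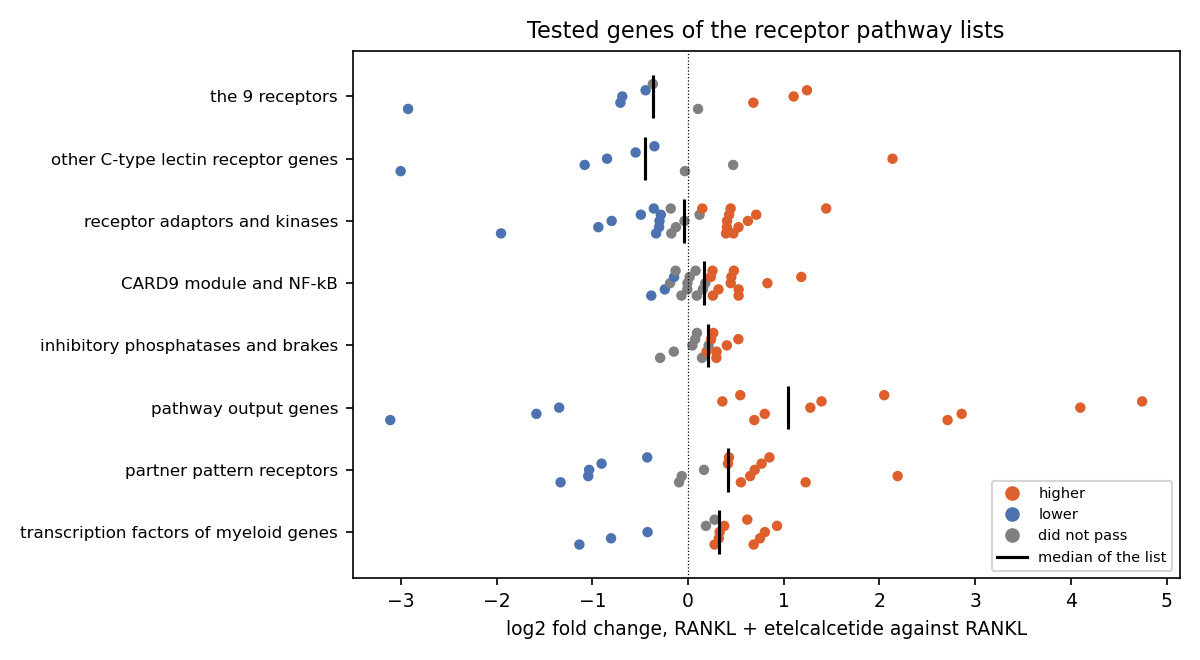
Log2 fold change (RANKL with etelcalcetide against RANKL) of each tested gene of the receptor, adaptor, signalling, output, partner receptor and transcription factor lists; orange genes were higher and blue genes lower at a limma adjusted p under 0.05, grey genes did not pass, and black lines are list medians, that of the further family genes including Olr1 and Selp. The 9 receptors spread from -2.93 to 1.24 around a median of -0.37, and the output genes have a median of 1.04.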

How the data were processed

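RNA-seq of total RNA was analysed for 2 groups of 3 libraries, which the sample titles define together with the replicate numbers. The values are FPKM, which the authors deposited as 1 table per library. The submitters' processing notes name HISAT2 2.1.0, featureCounts 1.6.0, Trimmomatic 0.38, DESeq2 1.22.1, FastQC, MultiQC and CASAVA without their roles, and the human build GRCh38; nonetheless all 55536 identifiers matched the mouse annotation GENCODE M21. Strandedness was not stated in the labels used here. FPKM times merged exon length gave whole reads for 100% of nonzero values within 0.01 reads. Intervals of read ratios cover counting error only.

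FPKM values were divided by trimmed-mean factors (30% of M and 5% of A values trimmed) computed from those reads, a pseudocount of 0.1 FPKM was added, and limma 3.58.1 in R 4.3.3 was fitted to the log2 values by group alone, with a prior variance that follows the mean. Genes with 0.5 FPKM and 10 reads in at least 3 libraries were tested. Fold changes refer to log2(FPKM + 0.1), so those of low genes are understated, and printed FPKM are the deposited values before scaling. A simulation with these depths and a preset dispersion of 0.01 recovered 97% of 100 genes changed 2-fold and 72% of 100 changed 1.5-fold among 11064 tested, with 7.14% false calls. Its changed genes were drawn from genes with levels above the filter's minimum and were far fewer than those called in these data. Recovery of genes near the filter was therefore not measured, and the false-call share need not hold for these data.

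The receptors and all lists were chosen with earlier results of these data known. Named genes were the 9 receptors, family genes with at least 10 reads in a library, up to 4 genes with the smallest adjusted p and at least 1 FPKM per other list, and 8 pathway genes (Syk, Card9, Fcer1g, Tyrobp, Bcl10, Malt1, Ptpn6 and Inpp5d); Hcst, Ikbkg, Mapk8, Il1rn and genes named at 0 reads or as markers were added after their values were seen. Some genes that the rule or a list names are not reported here. Alternatives covered scaling, filter, pseudocount, prior variance, limma-voom on the recovered reads, a replicate block and leaving out each library. Tables were handled with Python 3.11.15, pandas 2.3.3 and numpy 2.4.6.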

Additional observations from a re-analysis of the deposited data

How the results depend on the processing

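The 7 changed receptors, 3 higher and 4 lower, were called in the same direction under each of 17 alternatives, with an adjusted p of at most 0.0103 (Clec4n without the filter). Clec2d and Clec10a passed under none of them; Clec10a alone changed sign, with log2 fold changes from -0.05 to 0.35 when 1 library was left out and -0.0476 without etelcalcetide replicate 3. Leaving out 1 library gave 4689 to 6064 changed genes overall and 75 to 89 of the pathway lists. Scaling by library totals alone called 5830 genes, 61.0% of them higher in place of 49.1%, and moved the median log2 fold change of all genes from -0.01 to 0.07. With a replicate block, 7 receptors, 86 pathway genes and 5709 genes in all changed; among the genes named, this block ended the call of Fcer1g (adjusted p = 0.0581) and gave one to Tyrobp (0.0394). Between same-numbered libraries of the groups, deviations from group means correlated at 0.07, -0.02 and -0.03 for replicates 1, 2 and 3. With 3 libraries per group, these values cannot decide whether same-numbered libraries are paired. Low counts of Clec2d and Clec10a (27 to 78 reads) limit what could be detected for them.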

Other observations

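Genes listed as partners of the C-type lectins moved in both directions. Of 18 listed genes 17 were tested, 9 rose, 5 fell and 3 did not pass. Over all tested genes 26.0% were higher and 27.0% lower. The median log2 fold change of the list was 0.42, beside -0.01 over all tested genes. Some of the listed genes, such as Lgals1 and Cd63, do not encode pattern receptors. The low-affinity Fc receptor Fcgr3, which like Mincle signals through Fcer1g, rose from 3.62 ± 0.128 to 17.9 ± 1.91 FPKM (SD, n = 3 each; log2 fold change 2.19), and the high-affinity Fcgr1 from 5.77 ± 0.38 to 14.4 ± 0.531 (1.23). The galactose-binding lectin Lgals1 fell from 232 ± 17.6 to 97.3 ± 4.61 FPKM (-1.33) and the tetraspanin Cd63 from 56.7 ± 5.84 to 28.9 ± 0.798 (-1.04). The scavenger receptor Marco had 0 reads in all libraries.

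Of 14 transcription factors of myeloid genes 9 rose, 3 fell and 2 did not pass, beside 26.0% higher and 27.0% lower over all tested genes. Irf5 rose from 52.0 ± 3.09 to 105 ± 2.03 FPKM (log2 fold change 0.93; 14.1% of its exon length lies in an overlap with other genes) and Stat3 from 7.27 ± 0.372 to 13.5 ± 0.542 (0.80). Mitf, a factor of osteoclast genes, fell from 19.5 ± 1.70 to 9.32 ± 0.604 FPKM (-1.14), and Rbpj, the DNA-binding partner of Notch, from 21.3 ± 1.53 to 12.8 ± 0.520 (-0.80). Whether any of these factors acts on the receptor genes was not tested.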
